A study of Homo sapiens with 16 samples.

Results

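The genes described are 7 mRNAs reported in the literature as splicing targets of SAM68: BCL2L1 (NCBI gene 598), CCND1 (595), CD44 (960), RPS6KB1 (6198), MTOR (2475), ALDH1A3 (220) and SGCE (8910). They were found by gene number among 27434 rows of the gene tables, and each has a row of its own. They lie on chromosomes 20, 11, 11, 17, 1, 15 and 7 in that order. The rule that names them uses reports on other cells, while the set was put together with earlier results of these libraries known.

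SAM68, encoded by KHDRBS1, is an RNA-binding protein of the STAR family. It binds U- and A-rich stretches of pre-mRNA and is known to shift the choice between splice sites, the inclusion of cassette exons and the retention of introns. In BCL2L1 the shift is reported between the long form, which blocks apoptosis, and a short form that promotes it. In CCND1 and MTOR it is reported as intron retention, in CD44 as inclusion of variable exons, and in RPS6KB1, ALDH1A3 and SGCE as a choice between alternative internal or last exons. These reports are background; none of them is a result of these data.

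The data are mRNA-seq gene tables of 16 libraries, 2 for each of 8 groups. U2OS cells, an osteosarcoma line with wild-type background, received 50 nM control siRNA, 50 nM SAM68 siRNA, 100 ng of control plasmid or 100 ng of a plasmid that encodes mouse SAM68. HCT116 cells, a colorectal carcinoma line, were wild type or SAM68 knockout, and each genotype received 50 nM control siRNA or 50 nM siRNA against the long noncoding RNA NORAD. Cells were harvested after 48 h, and all were transfected with a lipid reagent. The labels do not say whether the knockout is 1 clone, nor whether replicate libraries are separate cultures. The p-values then reflect the spread of these libraries alone, which may be technical.

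Totals of expected counts were 11349545 to 27387412 per library. KHDRBS1 moved with its labels: 61.8 ± 19.2 CPM under SAM68 siRNA against 230.4 ± 1.59 under control siRNA, 556.3 ± 46.8 under SAM68 plasmid against 246.5 ± 37.0 under control plasmid (SD, n = 2 each), and 38.2 ± 5.76 in knockout against 230.1 ± 15.1 in wild-type HCT116 (SD, n = 4 each). KHDRBS1 was called in the knockout (edgeR adjusted p = 8.958e-06) but missed the threshold of 0.05 under SAM68 siRNA (log2 -1.94, adjusted p = 0.1849) and SAM68 plasmid (log2 1.18, adjusted p = 1.0), although neither group overlapped its control. CPM is the count scaled to a common library total, by the trimmed mean of M values (TMM) over all 16 libraries. The plasmid carries the mouse gene, and reads of its transcript that map to the human gene cannot be told apart from the cells' own. NORAD fell under its siRNA, from 249.2 ± 11.9 to 50.5 ± 2.46 CPM in wild-type and from 245.2 ± 20.1 to 67.4 ± 16.1 CPM in knockout HCT116 (SD, n = 2 each). Bone and mesenchymal markers summed to 5631 to 9357 CPM in U2OS and 25.4 to 39.4 CPM in HCT116, colon epithelial markers to 639 to 1258 and 3656 to 5092 CPM, and blood, endothelial and liver markers to at most 4.71 CPM in any library.

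The gene tables give 1 row per gene and no count per exon. Their hint of a change in isoforms is the effective length, the mean length of a gene's transcripts weighted by their estimated abundance, less a term for the fragment length. It moves when longer or shorter transcripts take a larger share, and it cannot show which exon changed, nor a change between transcripts of equal length. A form that is not among the transcripts of a row cannot be seen either. The rows of BCL2L1, CD44, RPS6KB1, SGCE and ALDH1A3 hold 9, 8, 5, 4 and 2 transcripts. The rows of CCND1 and MTOR hold 1 transcript each, of 4289 and 8725 bases, so their length was the same in all 16 libraries by construction and retained introns could not be seen there.

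The junctions below are where transcripts of the members part. They are given to show what the length of each row averages over, since no read count at a junction was used here. Each is 5′ to 3′ on the strand of the gene, from transcript sequences of GENCODE release 29 (build GRCh38), with the end of the upstream exon in lower case and the start of the downstream exon in capitals.
BCL2L1 long: gagaacggcggctggGATACTTTTGTGGAA
BCL2L1 short: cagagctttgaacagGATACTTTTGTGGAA
CD44 standard: gaatccctgctaccaGAGACCAAGACACAT
CD44 variable, into the first: gaatccctgctaccaCTTTGATGAGCACTA
CD44 variable, out of the last: atcgttccttatcagGAGACCAAGACACAT
RPS6KB1 with the cassette exon: gggggctatggaaagGTTTTTCAAGTACGA
RPS6KB1 without the cassette exon: gggggctatggaaagGCAATGATAGTAAGA
ALDH1A3 long, into the first skipped exon: cgcgccaccttggccGCCCTGGAGACGATG
ALDH1A3 long, out of the last skipped exon: tctctgatcaaagagGCCGGGTTCCCTCCA
ALDH1A3 short, skipping junction: cgcgccaccttggccGCCGGGTTCCCTCCA
SGCE with the cassette exon: ccgacgggaaggcgtGGAAAAGAGAAACAT
SGCE without the cassette exon: ccgacgggaaggcgtCATCCAACTGGTCCA

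The BCL2L1 pair shares its downstream exon, shown by the same capitals, and differs in the donor site of exon 2, with 189 bases between the sites. The CD44 pair shares the donor of exon 5. Its standard form joins that exon to the exon after the variable block, while the longest annotated transcript carries 9 variable exons of 1143 bases in all and another carries the last 3, of 396 bases. RPS6KB1 has a cassette exon of 69 bases (exon 4). In SGCE it is exon 8, of 27 bases. ALDH1A3's shorter transcript joins exon 3 directly to the exon that follows exons 4, 5 and 6, and so lacks 130, 62 and 129 bases, 321 in all.

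Levels of the 7 genes were compared first within each cell line, per transcript length, as TPM (reads divided by transcript length, scaled to a common total). In U2OS under control siRNA the order of the mean level was BCL2L1 (118.8 TPM), CCND1 (95.5), CD44 (79.2), SGCE (65.2), MTOR (35.6), RPS6KB1 (31.4) and ALDH1A3 (0.16). No neighbours in that order overlapped in their 2 libraries. In wild-type HCT116 under control siRNA ALDH1A3 stood first at 240.2 ± 30.3 TPM, and it overlapped CCND1 at 238.0 ± 0.83 TPM (SD, n = 2 each). BCL2L1 (187.9 TPM), CD44 (156.3), RPS6KB1 (35.9), MTOR (29.2) and SGCE (19.0) followed without overlap. ALDH1A3 was thus at the top of the set in one line and at its foot in the other.

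ALDH1A3, an aldehyde dehydrogenase that makes retinoic acid from retinaldehyde, was the member with the largest change in the SAM68 knockout and the largest gap between the lines. In U2OS it had 9.6 and 1.6 expected counts with control siRNA. The control plasmid libraries had 5.9 and 1.5, and the SAM68 plasmid libraries 1.2 and 1.9. Both SAM68 siRNA libraries were at 0, which allows up to 0.264 and 0.155 CPM for a limit of 3 counts, covering counting error only. ALDH1A3 therefore failed the filter on low counts in U2OS and was not tested there for SAM68.

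Wild-type HCT116 cells with control siRNA had 483.0 and 542.0 CPM of ALDH1A3, and those with NORAD siRNA had 469.0 and 449.2 CPM. Knockout cells had 706.2 and 811.0 CPM with control siRNA, and 696.4 and 724.5 CPM with NORAD siRNA. All 4 knockout libraries lay above all 4 wild-type libraries. The mean of the knockout groups was 734.5 ± 52.3 CPM against 485.8 ± 39.9 CPM (SD, n = 4 each), a log2 fold change of 0.61 ± 0.07 (SE; edgeR quasi-likelihood test, Benjamini-Hochberg adjusted p = 0.002893). ALDH1A3 rose by 52.9% (95% confidence interval 36.2 to 71.5%).

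The rise of ALDH1A3 was 0.57 in the control siRNA libraries alone (adjusted p = 0.07201, which misses the threshold of 0.05) and 0.65 in the NORAD siRNA libraries alone (adjusted p = 0.01306), both log2 and from edgeR. It stayed called without any 1 of the 8 libraries, between 0.56 and 0.66 on the log2 scale. The difference between both siRNA arms was 0.07 ± 0.15 (adjusted p = 0.8669), so no difference between arms was detected.

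**Figure D1:**
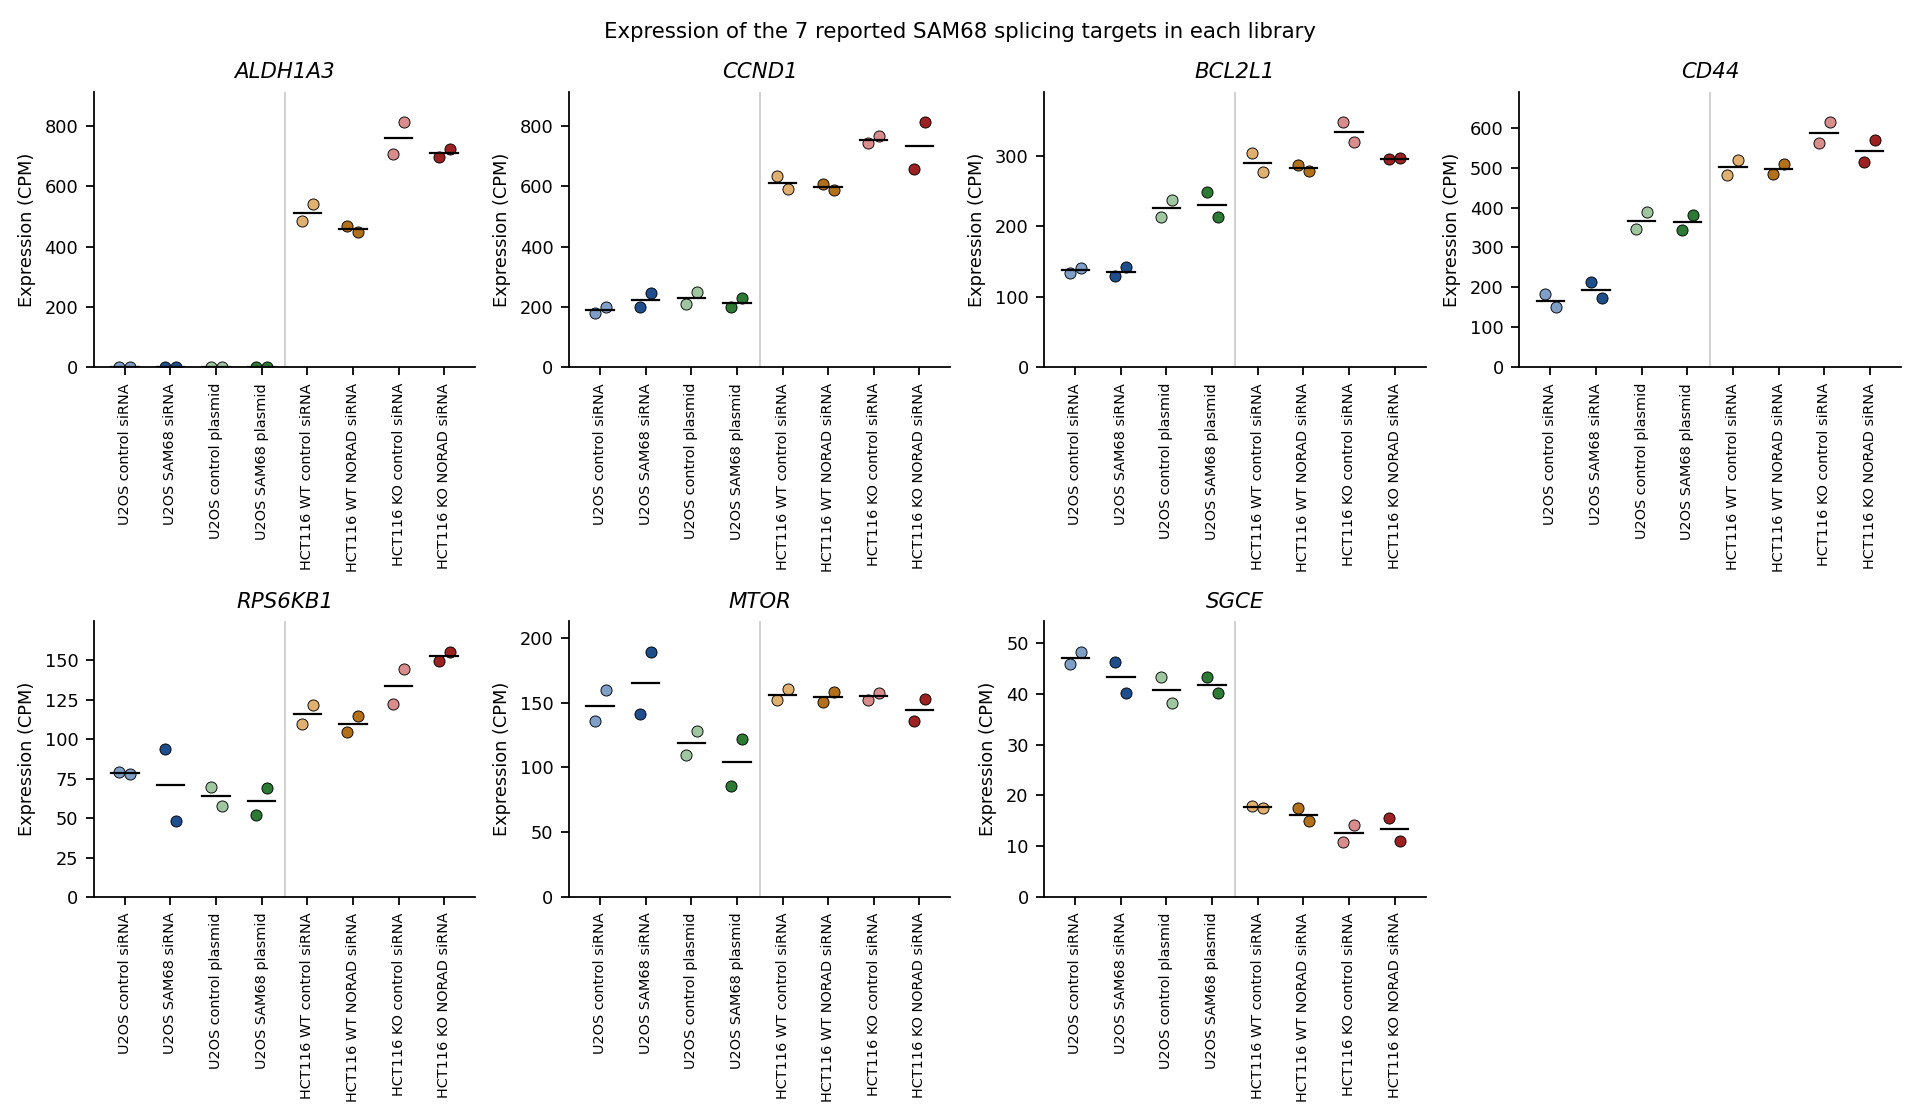
Expression in CPM (y axis, from 0) of each of the 7 genes in each of the 16 libraries (points), by group (x axis), with the group mean as a bar. ALDH1A3 was at most 0.443 CPM in U2OS and between 449.2 and 811.0 CPM in HCT116, where the 4 knockout libraries sit above the 4 wild-type ones.

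Across the 7 genes, 3 were called in the knockout, all higher, where 17.6% of the 13764 tested genes were called, 11.0% higher and 6.62% lower. The other called members were CCND1 and RPS6KB1. At an unadjusted p under 0.05 there were 5, with CD44 and SGCE, beside 36.1% of tested genes. CPM of the 4 knockout and 4 wild-type libraries did not overlap for the same 3 genes, against 18.9% of tested genes. On the TPM scale CCND1 and RPS6KB1 overlapped. Their knockout libraries went down to 229.15 and 36.54 TPM, and their wild-type libraries up to 238.58 and 38.75 TPM. ALDH1A3 stayed apart, with knockout libraries at 292.31 TPM and above and wild-type libraries at 261.62 TPM and below. The share of all genes apart on that scale was not counted. The median log2 change of the set was 0.191, beside -0.008 over all tested genes.

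One measured property moved with the knockout over all genes: log2 fold changes fell with the GC content of the longest RefSeq-paired transcript (Spearman rho -0.656 across 12285 genes, which are not independent replicates). It was -0.343 within the control siRNA libraries and -0.75 within the NORAD siRNA libraries. RPS6KB1, at 38.2% GC, lies at percentile 7.4 of tested genes, and BCL2L1, at 56.9%, at percentile 73.3. The other members have 44.0 to 52.2% GC. With an offset for this trend in each library, chosen after seeing the data, 8.89% of 12285 genes were called, and 4 of the 7 members: ALDH1A3, CCND1 and BCL2L1 higher and SGCE lower.

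CCND1 encodes cyclin D1, which drives entry into the cell cycle with CDK4 and CDK6. In wild-type HCT116 its level was 632.4 and 590.5 CPM with control siRNA, and with NORAD siRNA 608.8 and 587.4 CPM. In the knockout it was 741.7 and 766.1 CPM, and 656.5 and 811.4 CPM. The lowest knockout library, at 656.5 CPM, lay just above the highest wild-type one. CCND1 rose by 24.2% in the knockout (log2 0.31 ± 0.08, SE; edgeR adjusted p = 0.0291), and with the GC offset the change was 0.33 (adjusted p = 0.01826). In all, CCND1 was called in 7 of 17 alternatives. The call was lost, with adjusted p between 0.05582 and 0.1212, without any 1 of the 4 wild-type libraries, without control siRNA knockout replicate 2 (0.09196) or without NORAD siRNA knockout replicate 2 (0.0624), and in either siRNA arm alone (0.4197 and 0.076).

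RPS6KB1 encodes S6 kinase 1, which phosphorylates ribosomal protein S6 downstream of mTOR. Wild-type HCT116 had 109.7 and 121.7 CPM with control siRNA, and 104.3 and 114.5 CPM with NORAD siRNA. In the knockout it was at 122.2 and 144.7 CPM, and at 149.8 and 155.3 CPM. The knockout libraries lay above the wild-type ones, with the nearest pair at 122.2 and 121.7 CPM. The log2 change was 0.36 ± 0.08 (SE; edgeR adjusted p = 0.02206). With the GC offset it was 0.06 (adjusted p = 0.463), and the call was also lost in the control siRNA arm (0.22, adjusted p = 0.6233). In all, RPS6KB1 was called in 7 of 17 alternatives. Leaving out wild-type control siRNA replicate 1, either wild-type NORAD siRNA library, control siRNA knockout replicate 2 or either NORAD siRNA knockout library gave adjusted p of 0.05224 to 0.1188.

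MTOR, the kinase at the centre of both mTOR complexes, was level across HCT116. Its libraries lay between 135.5 and 160.4 CPM, and the knockout overlapped the wild type. The log2 change was -0.04 ± 0.07 (SE), with a 95% interval of -0.20 to 0.11 (edgeR adjusted p = 0.6899). With the GC offset it was 0.02.

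BCL2L1, whose long form holds BAX and BAK in check, was at 276.8 to 303.5 CPM in the 4 wild-type and 295.1 to 347.3 CPM in the 4 knockout libraries. The groups overlapped, and the log2 difference of 0.15 ± 0.07 (SE) missed the threshold (edgeR adjusted p = 0.1516). With the GC offset it was 0.29 ± 0.05 and passed (adjusted p = 0.005911).

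CD44, a cell-surface receptor for hyaluronan, was at 482.0 to 519.4 CPM in the 4 wild-type and 514.6 to 612.9 CPM in the 4 knockout libraries. The knockout library nearest to wild type was below the highest wild-type one. The log2 difference was 0.19 ± 0.07 (SE; edgeR adjusted p = 0.08642), and 0.09 with the GC offset (adjusted p = 0.355).

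SGCE encodes epsilon-sarcoglycan, a membrane glycoprotein of the dystrophin-associated complex. It had the lowest counts of the set in HCT116, 168 to 428 per library. Its level was 15.0 to 17.9 CPM in wild-type and 10.9 to 15.6 CPM in knockout libraries. The groups overlapped by 1 library on each side, and the log2 difference was -0.38 ± 0.14 (SE; edgeR adjusted p = 0.07898). With the GC offset it was -0.52 (adjusted p = 0.02615).

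**Figure D2:**
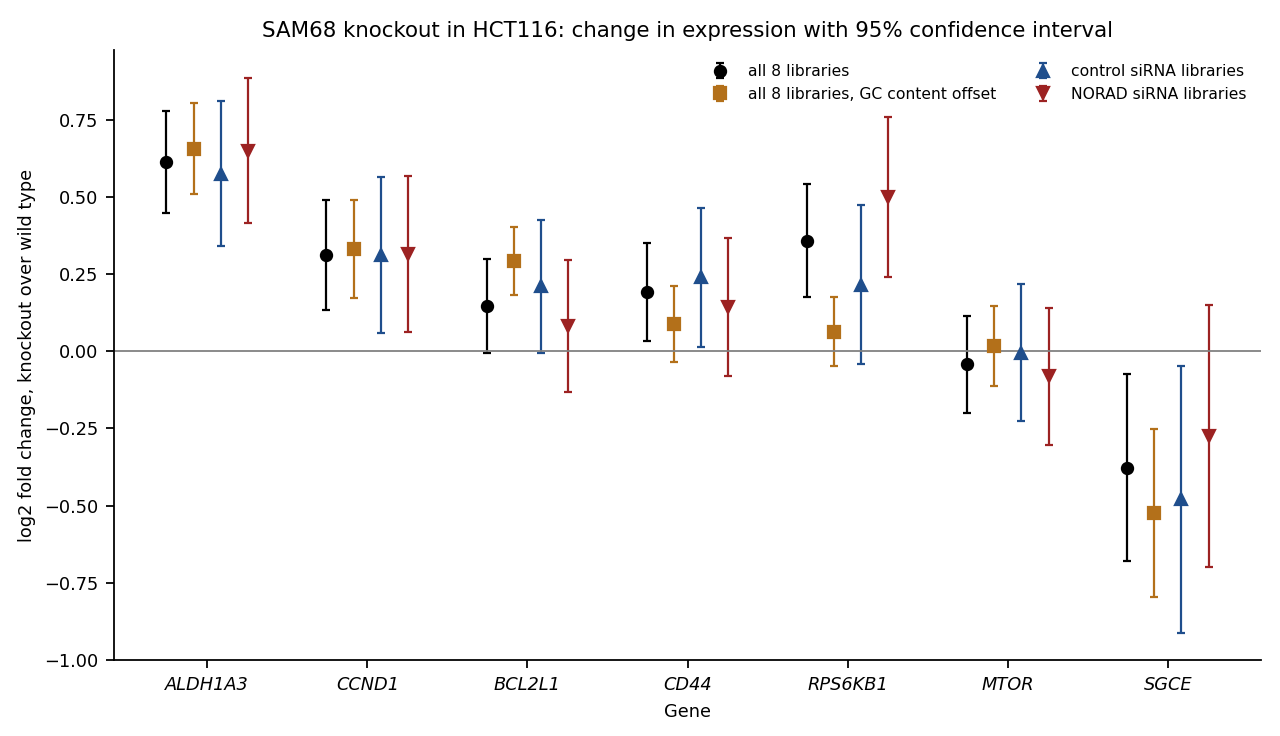
Log2 fold change of each gene in SAM68 knockout over wild-type HCT116 (y axis; points, with 95% confidence intervals as bars) from all 8 libraries, with the GC content offset, and within each siRNA arm. ALDH1A3 lies between 0.57 and 0.66 in all 4, while RPS6KB1 falls from 0.36 to 0.06 with the offset.

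In U2OS none of the 6 tested members was called under SAM68 siRNA (edgeR, 0 also at an unadjusted p under 0.05, and 0 by DESeq2), where 0.00639% of 15658 tested genes were called and KHDRBS1, the gene the siRNA targets, was not. BCL2L1 had 134.4 and 140.4 CPM in the control libraries, which overlapped the 129.4 and 141.8 CPM of the SAM68 siRNA libraries. Its log2 difference was -0.06, with a 95% interval of -0.44 to 0.31. CCND1 was at 180.7 and 199.5 CPM against 198.5 and 247.6 CPM, a difference of 0.18 (-0.23 to 0.59). The intervals reach beyond the changes seen in the knockout, so changes of that size could not be detected here.

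CD44 had 183.4 and 150.0 CPM with control siRNA, and 214.2 and 174.6 CPM with SAM68 siRNA (log2 0.18, 95% interval -0.26 to 0.62). MTOR was at 135.4 and 159.3 CPM against 140.9 and 189.0 CPM (0.11, -0.38 to 0.61). SGCE was at 45.8 and 48.2 CPM against 46.3 and 40.2 CPM (-0.16, -0.58 to 0.26). In all 6 tested members the control and SAM68 siRNA libraries overlapped, while they did not for 19.5% of tested genes.

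RPS6KB1 varied most between replicates: 79.4 and 78.1 CPM with control siRNA, but 93.8 and 48.4 CPM with SAM68 siRNA. Its 2 SAM68 siRNA libraries lie on opposite sides of the control. The log2 difference was -0.18 (95% interval -0.87 to 0.51) and reached 0.25 without SAM68 siRNA replicate 2 and -0.71 without replicate 1. Log2 changes rose with transcript GC content in this comparison (rho 0.403 across 13755 genes).

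Under SAM68 plasmid none of the 6 tested members was called either (edgeR, 0 at an unadjusted p under 0.05, 0 by DESeq2), with 0.00639% of tested genes called and KHDRBS1 not among them. The log2 differences ran from -0.19 for MTOR to 0.04 for SGCE. MTOR had 109.8 and 128.1 CPM with control plasmid, and 86.0 and 121.8 CPM with SAM68 plasmid, with a 95% interval of -0.69 to 0.31. BCL2L1 was at 213.8 and 237.4 CPM against 248.2 and 213.4 CPM. All 6 members overlapped between the groups, which 18.3% of tested genes did not, and the widest interval, that of RPS6KB1, ran from -0.76 to 0.63.

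No member was called in the response to NORAD siRNA. In wild-type HCT116 the count was 0 of 7, beside 0.00727% of tested genes, and log2 differences ran from -0.16 for ALDH1A3 to -0.01 for CD44 (edgeR adjusted p = 0.9995 for each). In the knockout none was called, beside 0.00727%, with differences from -0.16 for BCL2L1 to 0.20 for RPS6KB1 (adjusted p of 0.4895 and above). No member reached an unadjusted p under 0.05 in either genotype, and DESeq2 called none. Groups did not overlap for ALDH1A3 and SGCE in wild type, where this held for 26.7% of tested genes, nor for BCL2L1 and RPS6KB1 in the knockout, where it held for 43.2%. The RPS6KB1 difference in the knockout lay between -0.05 and 0.31 over the alternatives, and the lowest value came with the GC offset.

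Whether the NORAD siRNA acts differently on a member with and without SAM68 was tested as the difference of both effects. None of the 7 passed (edgeR adjusted p of 0.6422 and above; 0 at an unadjusted p under 0.05; 0 by DESeq2; 0.0% of tested genes called). RPS6KB1 had the largest difference, 0.28 on the log2 scale, with a 95% interval of -0.08 to 0.65. With the GC offset it was -0.06 (adjusted p = 1.0), and over all genes this difference fell with GC content (rho -0.739 across 12285 genes).

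Mean transcript length was the second measure. Over 28 tests of the 5 members with several transcripts in the 6 SAM68 and NORAD comparisons, none was called (limma on log2 effective length; 0 at an unadjusted p under 0.05), and the differences ran from -2.34 to 1.57%. Of all genes tested for length, 0.0% were called under SAM68 siRNA, SAM68 plasmid, either NORAD siRNA comparison and their difference, and 0.0785% in the knockout. Overlap was not scored for the difference of both NORAD siRNA effects, which does not compare groups directly. Lengths of the compared groups did not overlap in 5 of the other tests. These were RPS6KB1 under SAM68 siRNA (28.2% of genes tested for length), CD44 under SAM68 plasmid (26.8%) and under NORAD siRNA in wild type (28.5%), and RPS6KB1 and SGCE under NORAD siRNA in the knockout (30.6%).

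BCL2L1's mean length in U2OS was 2572.6 and 2552.2 bases with control siRNA, and 2535.4 and 2571.3 bases under SAM68 siRNA. In HCT116 it was 2640.2 to 2663.0 bases in the 4 wild-type and 2659.4 to 2672.8 bases in the 4 knockout libraries. The groups overlapped in both lines, and in the knockout this held for all 5 members, beside 6.42% of genes whose lengths did not overlap. The difference in effective length was -0.39% under SAM68 siRNA (95% interval -2.26 to 1.52%), -0.49% under SAM68 plasmid (-2.36 to 1.42%) and 0.42% in the knockout (-0.23 to 1.08%). These are small beside the 189 bases between the long and short donor sites, but a row of 9 transcripts does not translate a length into the share of either form.

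CD44's mean length in U2OS was 4547.3 and 4498.3 bases with control siRNA, and 4492.1 and 4544.1 bases with SAM68 siRNA. It was 4633.8 and 4628.3 bases with control plasmid, and 4645.5 and 4643.7 bases with SAM68 plasmid. The plasmid groups did not overlap, as for 26.8% of genes tested for length, and the difference of 0.33% (95% interval -1.03 to 1.69%) was not called.

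In HCT116 CD44's mean length was 5291.3 and 5333.7 bases in wild type with control siRNA, and 5207.5 and 5290.9 bases with NORAD siRNA. The 4 knockout libraries lay close together, at 5208.4 to 5220.4 bases. One wild-type NORAD siRNA library, at 5207.5 bases, was as short as the knockout libraries, and the other 3 were longer. The knockout difference was -1.12% (95% interval -2.59 to 0.38%; limma adjusted p = 0.8574).

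SGCE's mean length in the knockout was 1700.0 and 1697.4 bases with control siRNA, and 1667.2 and 1670.2 bases with NORAD siRNA. These groups did not overlap, as for 30.6% of genes tested for length. The difference of -1.92% (95% interval -3.86 to 0.06%) was not called (limma adjusted p = 0.9999). In wild type SGCE measured 1666.6 and 1683.0 bases with control siRNA, which overlapped 1680.3 and 1665.1 bases with NORAD siRNA. The difference of both effects was -2.34% (-5.06 to 0.47%; adjusted p = 0.9538).

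SGCE in U2OS ranged from 1600.6 bases in 1 SAM68 plasmid library to 1670.0 bases in 1 control siRNA library. The SAM68 plasmid difference was -1.74% (95% interval -4.76 to 1.37%). SGCE had 586 to 1342 counts per library in U2OS.

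Among the 5 members with several transcripts, RPS6KB1 had the tightest lengths over all 16 libraries, 5341.1 to 5364.4 bases, a span of 23.3 bases. Within HCT116 alone ALDH1A3 was tighter, with a span of 6.33 bases. The RPS6KB1 difference was -0.06% under SAM68 siRNA (95% interval -0.57 to 0.45%) and 0.29% in the knockout (-0.36 to 0.94%). The RPS6KB1 span is smaller than the cassette exon of 69 bases, but a mean over 5 transcripts does not give the share that carries this exon. The GENCODE transcripts shown with and without it have 5375 and 1913 bases, so they differ by more than the exon.

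For ALDH1A3, whose row holds 2 transcripts, the mean length gives the share of each form once both lengths are known. In the SAM68 siRNA libraries, where no read was counted, its length stands at 3446.5 bases, the plain mean of both transcripts, and the other U2OS libraries stand at exactly 3286.0 bases. That fixes the longer form at 3607.0 bases, 321 more, the same number as the 3 skipped exons. The longer form then made up 97.5 to 99.4% of ALDH1A3 transcripts in the 8 HCT116 libraries.

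The share was 98.6 and 99.4% in wild type with control siRNA, and 98.6 and 97.8% with NORAD siRNA. In the knockout it was 99.4 and 98.6%, and 97.5 and 98.7%. The knockout spans the wild-type range, so the rise in ALDH1A3 reads came with no shift in this share that these libraries could show. The share covers only the 2 transcripts of the row, and a form that is not among them could not be seen. The length difference was 0.09% (95% interval -0.23 to 0.41%; limma adjusted p = 0.8574).

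In the 6 U2OS libraries with reads, all of the at most 9.6 estimated reads per library were given to the shorter ALDH1A3 transcript. These reads are too few to compare with HCT116.

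**Figure D3:**
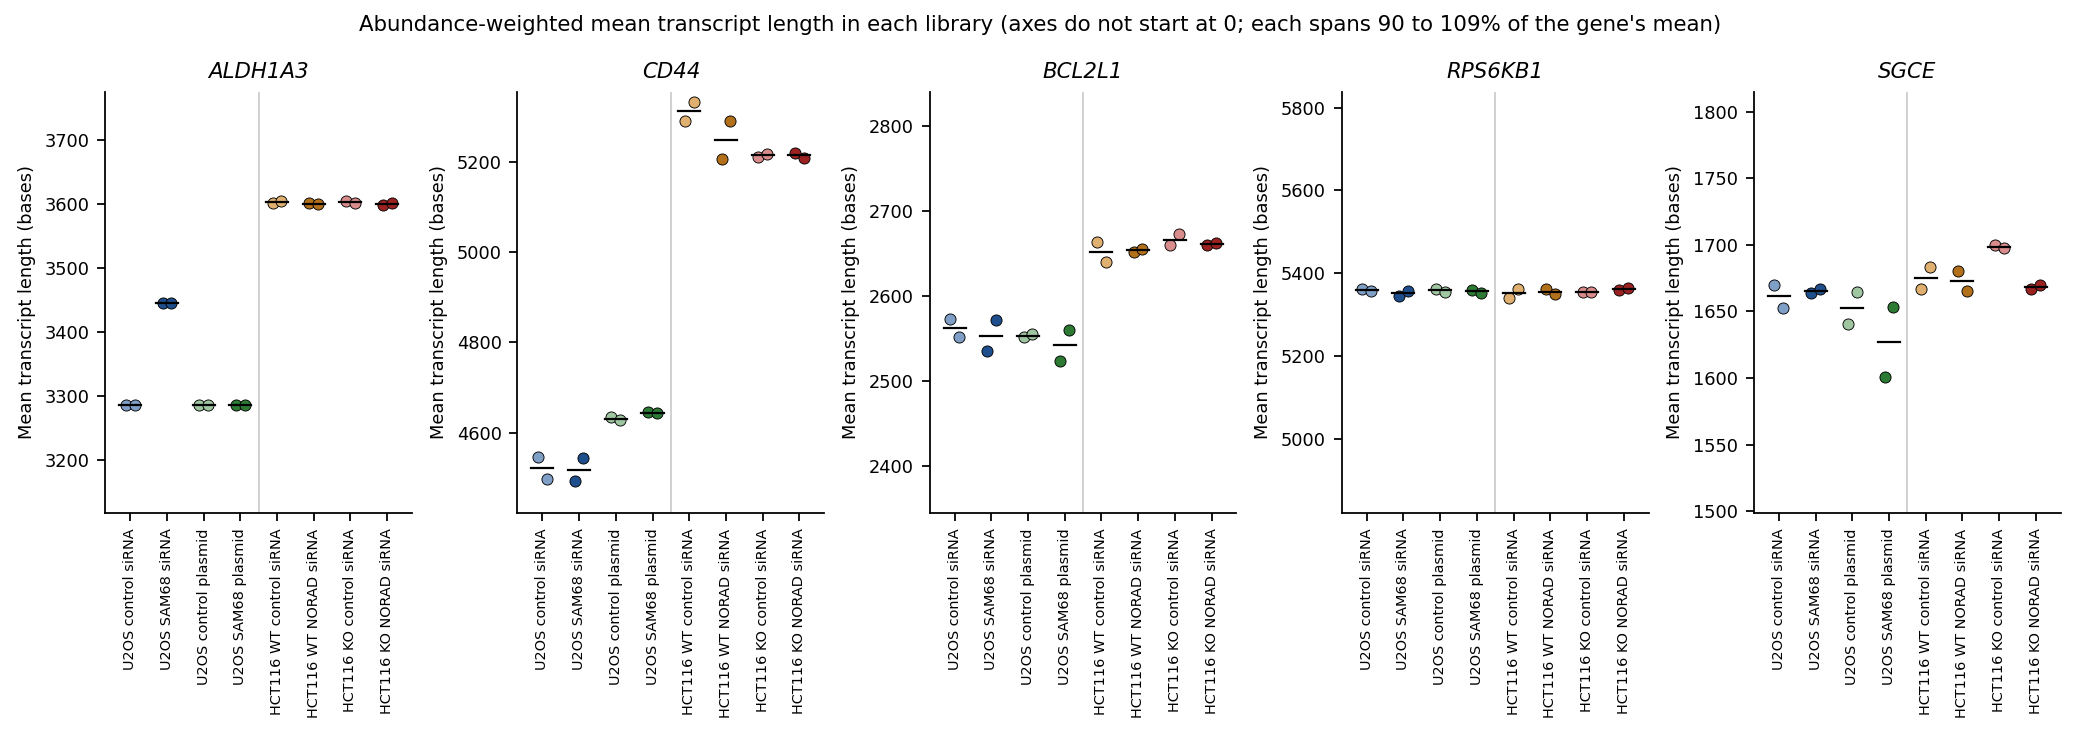
Mean transcript length in bases (y axis, not from 0) of the 5 members with several transcripts in each of the 16 libraries (points), by group (x axis), with the group mean as a bar. CD44 lies at 4492.1 to 4645.5 bases in U2OS and 5207.5 to 5333.7 bases in HCT116; ALDH1A3 stands at 3446.5 bases in the 2 SAM68 siRNA libraries because no read was counted there.

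The cell lines differed far more than any SAM68 comparison. Between U2OS and wild-type HCT116 under control siRNA, 5 of the 7 members were called for expression, beside 65.4% of 16444 tested genes, so a call is no particular feature of these genes. CPM did not overlap for 6 of the 7, and for 85.1% of tested genes. CCND1 was lower in U2OS (log2 -1.69 ± 0.16), as were CD44 (-1.59 ± 0.15), BCL2L1 (-1.08 ± 0.13) and ALDH1A3 (-11.0 ± 0.39), and SGCE was higher (1.41 ± 0.19; all SE, edgeR adjusted p of 1.317e-05 and below). RPS6KB1 (-0.55 ± 0.24, adjusted p = 0.05309) and MTOR (-0.08 ± 0.18, adjusted p = 0.7023) did not pass. Line, and any difference in how the lines were handled, cannot be told apart here.

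Length was called between the lines for CD44, BCL2L1 and ALDH1A3, 3 of the 5 members tested, beside 8.31% of 8937 genes. The same 3 did not overlap in length, as for 54.1% of those genes. For ALDH1A3 neither counts as a difference between the lines, since its U2OS length rests on 9.6 and 1.6 expected counts. CD44's mean length was 4523 ± 34.6 bases in U2OS and 5313 ± 30.0 bases in wild-type HCT116 (SD, n = 2 each), a difference in effective length of -15.7% (95% interval -17.1 to -14.2%; limma adjusted p = 9.844e-07). All 8 U2OS libraries had shorter CD44 than all 8 HCT116 libraries, a separation found in 14.0% of genes tested for length. The gap in mean length is smaller than the 1143 bases of the whole variable block and larger than the 396 bases of its last 3 exons, though the 8 transcripts also differ at their ends, so it cannot be assigned to the variable exons from these files.

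BCL2L1's mean length was 2562 ± 14.4 bases in U2OS and 2652 ± 16.1 bases in HCT116 (SD, n = 2 each), and the difference in effective length was -3.58% (95% interval -4.89 to -2.25%; limma adjusted p = 0.005684). Without centring on the fragment length that call was lost (adjusted p = 0.05127). All U2OS libraries again lay below all HCT116 libraries. ALDH1A3 was called too, but its U2OS value rests on the few reads above. RPS6KB1 (-0.24%) and SGCE (-0.36%) were not called.

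**Figure D4:**
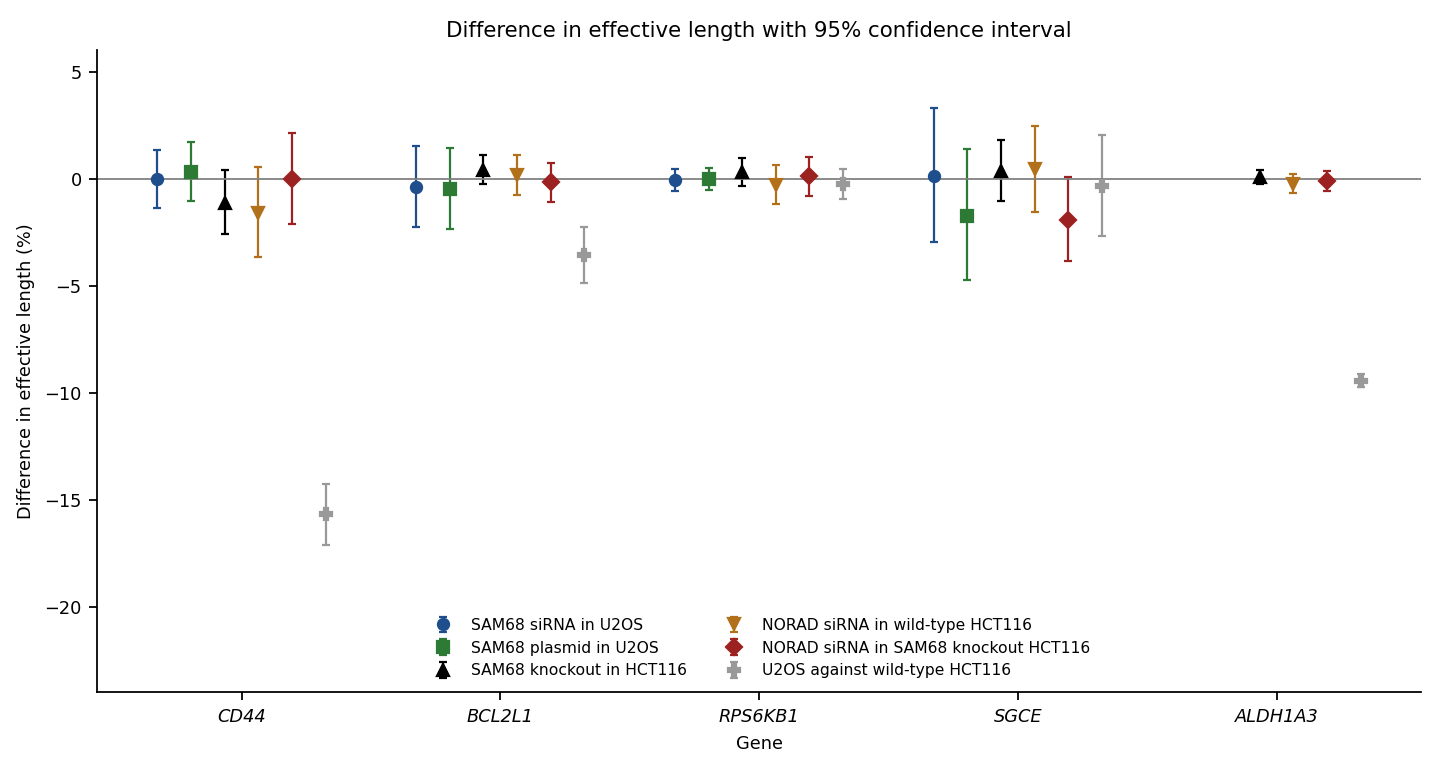
Difference in effective length in percent (y axis) for each member with several transcripts (x axis) in 6 comparisons (point shapes), with 95% confidence intervals as bars; the difference of both NORAD siRNA effects is not drawn. The SAM68 and NORAD comparisons drawn lie between -1.92 and 0.43%, while U2OS against HCT116 stands at -15.7% for CD44 and -3.58% for BCL2L1.

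Within U2OS, CPM of the 4 siRNA and 4 plasmid libraries did not overlap for BCL2L1, CD44 and MTOR, 3 of the 6 tested members, beside 33.6% of 15658 genes, so a separation is no particular feature of these genes. The 4 siRNA libraries had 150.0 to 214.2 CPM of CD44 and the 4 plasmid libraries 344.2 to 387.9 CPM, with mean CD44 lengths of 4492.1 to 4547.3 and 4628.3 to 4645.5 bases; lengths did not overlap for 8.83% of genes tested for length. On the TPM scale CD44 overlapped, at 71.4 to 106.6 and 106.0 to 149.0 TPM, while 37.3% of genes did not. BCL2L1 was at 129.4 to 141.8 CPM in the siRNA libraries and at 213.4 to 248.2 CPM in the plasmid libraries (110.8 to 121.6 and 145.1 to 167.1 TPM), while its mean length overlapped, at 2535.4 to 2572.6 and 2523.6 to 2560.3 bases. MTOR was at 135.4 to 189.0 and 86.0 to 128.1 CPM (32.9 to 41.4 and 13.9 to 25.1 TPM). SGCE overlapped on the CPM scale but not on the TPM scale, at 50.5 to 67.2 and 41.6 to 50.1 TPM, so which members separate depends on the scale. The design does not pair these experiments, so the kind of transfection and any other difference between them cannot be told apart, and no test was made.

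The pathways around the members were described from lists of their partners. Under SAM68 siRNA and under SAM68 plasmid no gene of the 8 lists was called. The genes with the smallest p per list included RPTOR, the scaffold of mTOR complex 1, at 30.4 ± 0.81 CPM under SAM68 siRNA against 45.5 ± 0.51 CPM under control (SD, n = 2 each; log2 -0.62, edgeR adjusted p = 1.0). They also included NOS1, of the dystrophin complex, under SAM68 plasmid (log2 -0.52, adjusted p = 1.0).

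In the knockout, of 15 tested genes of the cyclin D and RB pathway 2 rose and 3 fell, where 11.0% of all tested genes rose and 6.62% fell. The list median was -0.002, beside -0.008 over all tested genes. The same shares apply to the lists that follow, whose small counts are a description and set none of them apart. CDKN1A, which encodes the inhibitor p21, rose from 140.4 ± 19.3 to 300.6 ± 51.6 CPM (SD, n = 4 each; log2 1.10 ± 0.08, edgeR adjusted p = 0.000143; 1.27 with the GC offset). RB1, the retinoblastoma protein that cyclin D1 and its kinases inactivate, rose by 0.63 (adjusted p = 0.01357; 0.31 with the offset). E2F1, an activator of S-phase genes, fell by 0.27 (adjusted p = 0.03494; -0.04 with the offset, not called). E2F2 fell by 0.33 (adjusted p = 0.03763; -0.17 with the offset, not called).

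Of the 18 tested genes of the mTOR complexes and S6 kinase pathway 3 rose and 1 fell, beside 17.6% of all tested genes called, with a median of -0.056. DEPTOR, an inhibitor that binds mTOR, rose from 1.61 ± 0.14 to 3.10 ± 0.46 CPM (SD, n = 4 each; log2 0.95, edgeR adjusted p = 0.01625; 0.84 with the GC offset). RICTOR, of mTOR complex 2, rose by 0.50 (adjusted p = 0.01775), and RPTOR fell by 0.29 (adjusted p = 0.04743). With the offset these were 0.15 and -0.09, and neither was called. The row that joins PDCD4, a repressor of translation that S6 kinase marks for decay, with a microRNA gene rose by 0.31 (adjusted p = 0.03945).

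Of 14 tested BCL2 family genes 1 rose, with a median of -0.003: PMAIP1, the pro-apoptotic NOXA, by 0.60 (edgeR adjusted p = 0.008622; 0.27 and adjusted p = 0.0527 with the GC offset). Among 11 tested ligands and partners of CD44 the hyaluronan synthase HAS3 rose by 0.25 (adjusted p = 0.04483; 0.32 with the offset), and the membrane protease MMP14 fell by 0.43 (adjusted p = 0.03029; -0.25 with the offset, not called). None of 11 retinoic acid genes was called, of which 8 had a negative and 3 a positive change, with a median of -0.151. RDH10, which makes the retinaldehyde that ALDH1A3 uses, was nearest at 0.23 (adjusted p = 0.05406). Among 8 sarcoglycan and dystrophin genes SGCB rose by 0.29 (adjusted p = 0.04002; 0.03 with the offset, not called).

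Of 13 tested splicing regulators reported to work with SAM68, KHDRBS3 was called. It encodes SLM2, a SAM68 paralog, and rose from 10.0 ± 0.71 to 17.9 ± 2.52 CPM (SD, n = 4 each; log2 0.85 ± 0.12, edgeR adjusted p = 0.004494; 0.88 with the GC offset). Of the 3 tested rows of further reported SAM68 splicing targets none was called. The nearest was the joint row of SMN1 and SMN2, near-identical copies that cannot be separated here, at 0.15 (adjusted p = 0.1675).

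Genes with the most similar pattern over the 16 libraries were sought among 9852 genes with at least 5 CPM in each line, after centring within each line. For BCL2L1 these were MYEOV (Pearson r = 0.985) and HM13 (0.977), for CD44 CTPS1 (0.98) and NEDD4L (0.979), and for RPS6KB1 METTL14 (0.993) and CCDC82 (0.979). For MTOR they were HTT (0.99) and MAP3K9 (0.979). CCND1 (TMEM43, 0.85, and ANKH, 0.843) and SGCE (PPP1R2, 0.753) had no neighbour as close. Centring did not take out steps between groups of a line, such as siRNA against plasmid libraries in U2OS or knockout against wild type in HCT116. All points share libraries, depth and the GC trend described above, and the values are a description only.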

How the data were processed

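Gene tables of 16 libraries were used, 1 per library. Per the file headers, they hold RSEM estimates per gene from RefSeq transcripts: expected counts, which the authors deposited without normalization, TPM scaled by the authors, and the effective length and length in bases. The submitters' processing notes name STAR, RSEM and hg19 without versions; those, and any use of strand in counting, were not given in the sources used here. FPKM was not used here.

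Expected counts were rounded to whole numbers, filtered with filterByExpr, scaled by TMM, and edgeR's quasi-likelihood test was applied (edgeR 4.0.16, R 4.3.3). Each cell line was fitted with its 4 groups, and all 16 libraries for the comparison of lines. Log2 effective length was centred per library on genes with 1 transcript, which takes out the fragment term of 154.0 to 208.3 bases, and tested with limma 3.58.1 on genes with several transcripts. P-values were Benjamini-Hochberg adjusted over all genes tested, with a threshold of 0.05. With 2 libraries against 2, the smallest two-sided p of an exact permutation test is 0.333. Both tests were run on simulated data in the HCT116 layout without a GC trend, which does not show how they perform in U2OS or under that trend. Alternatives were DESeq2 1.42.0, no filter on low counts, an effective length offset, the replicate number as a block, the length column, no centring, a minimum of 5 CPM and leaving out each library.

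The GC offset, chosen after seeing the data, was a lowess of span 0.3 per library. GENCODE release 29 belongs to another build than the files, so no coordinates are printed. The members and lists were chosen with earlier results of these data known. Named genes were all 7 members, KHDRBS1 and NORAD, up to 4 called genes (or else the 1 of smallest p) per list in each SAM68 comparison, and the 2 most similar genes per member, 1 of which is not reported here.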

Additional observations from a re-analysis of the deposited data

How the results depend on the processing

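Of 8 called expression results of members, none changed sign over the alternatives. The calls of CCND1 and RPS6KB1 in the knockout, lost as given above, and of ALDH1A3 in 1 siRNA arm were the exceptions to a steady call. Among 39 expression results that were not called, 47 of 411 alternative values had the other sign, and 10 values passed; among 30 length results 40 of 290 had the other sign and 0 passed. The cause was not tested.

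Counts of called genes moved more. The knockout count was 2424 of 13764 genes and became 3772 with no filter on low counts and 1092 with the GC offset. It was 43 in the control siRNA arm, or 164 with the offset, and 2495 in the NORAD siRNA arm, or 346 with the offset. It was 202 to 3242 leaving out 1 library, lowest without wild-type NORAD siRNA replicate 1. Knockout length calls were 6, and 1 with the length column, 2 with no centring, 0 in either arm and 0 to 4 leaving out 1 library.

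SAM68 siRNA expression calls were 1, and 7 with DESeq2, 27 with no filter, 0 with the GC offset and 0 to 5 leaving out 1 library. SAM68 plasmid calls were 1, and 4, 15, 0 and 0 to 2. NORAD siRNA calls were 1 in wild type, and 5 with DESeq2, 33 with no filter and 1 to 2 leaving out 1 library. In the knockout they were 1, and 8, 61 and 1 to 4. The difference of both effects gave 0 (1048 at an unadjusted p under 0.05), and 2, 30 and 0 to 1. Length calls leaving out 1 library were 0 to 1 for SAM68 siRNA, 0 to 69 for SAM68 plasmid (69 without SAM68 plasmid replicate 2), 0 to 5 and 0 to 2 for NORAD siRNA in wild type and knockout, 0 to 3 for their difference and 460 to 545, from 743, between the lines.

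The labels give no batch shared by same-numbered replicates, and the main fits do not pair them. Deviations of same-numbered libraries correlated at -0.207 to 0.393, and 8 of 12 pairs exceeded 0.1 (5 of 6 in HCT116, 3 of 6 in U2OS). Whether the replicate number marks a shared batch cannot be settled from these values. With the replicate block the expression counts were 0 for SAM68 siRNA, 0 for SAM68 plasmid, 5247 in the knockout, 3 and 7 for NORAD siRNA in wild type and knockout and 2 for their difference, and knockout length calls were 0. With the block the knockout adjusted p was 0.04022 for BCL2L1, 0.009347 for CD44 and 0.02909 for SGCE. Low counts limit SGCE and, in U2OS, ALDH1A3 most.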

Other observations

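The mean transcript length of KHDRBS1 was 2876 ± 3.76 bases in the 4 knockout and 2846 ± 20.7 bases in the 4 wild-type libraries (SD, n = 4 each). The groups did not overlap, as for 6.42% of genes tested for length, and the difference in effective length of 1.14% (95% interval 0.25 to 2.03%) was not called (limma adjusted p = 0.5105).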
